A study of Mus musculus with 4 samples.

Results

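The genes described here are 8 genes of antigen presentation by major histocompatibility complex (MHC) class II, chosen by name: H2-Aa, H2-Ab1, H2-Eb1, H2-DMa, H2-DMb1, H2-DMb2, Cd74 and Ciita. Of these 8, 7 had a row of their own among the 23735 rows of the deposited expression table. Cd74 stood in a row that joined it with the microRNA gene Mir5107, and that row is called Cd74 here. RNA-seq had been run on epithelium from the jejunum of adult mice (mixed 129xC57/Bl6xSvJ strain), in 2 libraries labelled Hnf4a;Cdx2 double knockout and 2 libraries of Cre-negative controls. All mice, controls included, had received 1 mg of tamoxifen on each of 5 days, which activates the Cre recombinase that removes the conditional alleles. No source used here names the promoter that drives Cre, the deleted exons or the time between tamoxifen and collection. Hnf4a and Cdx2 encode transcription factors of the intestinal epithelium, and the comparison asks how their joint loss changes its transcripts.

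MHC class II molecules show peptides from endosomes to CD4+ T cells. An alpha and a beta chain pair in the endoplasmic reticulum, where the invariant chain Cd74 fills the groove, and H2-DM later exchanges the last fragment of Cd74 for peptide. Ciita is the coactivator that switches these genes on through a shared promoter module, and interferon gamma induces it in cells such as enterocytes. Dendritic cells, macrophages and B cells carry class II at high levels, and villus enterocytes of the small intestine carry it as well.

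Both targeted genes were read before any other. Hnf4a stood at 31.6 and 48.2 FPKM in the libraries labelled double knockout, against 156 and 202 FPKM in controls. FPKM relates the fragments of a gene to its length and to the size of the library. Cdx2 stood at 159.8 and 161 FPKM in the libraries labelled double knockout, against 70.9 and 65.2 FPKM in controls, a direction that goes against its label. Because a gene-level value can include exons outside a deleted part, every direction below rests on the labels. The absolute depth of the libraries is unknown. From the steps between low values, 1 read was worth 1.51 and 2.02 times as much FPKM in replicates 1 and 2 labelled double knockout, and 1.44 times as much in control 2, as in control 1. Control 1 was thus the deepest library and replicate 2 labelled double knockout the shallowest.

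Of the 8 genes, 6 form a row within 1 stretch of chromosome 17, from 34259777 to 34453619 in the mouse build mm9 named in the submitters' processing notes. In order of position these are H2-DMa (34259777 to 34276046), H2-DMb2 (34282361 to 34288040), H2-DMb1 (34290136 to 34297174), H2-Ab1 (34400172 to 34406363), H2-Aa (34419696 to 34424716) and H2-Eb1 (34442812 to 34453619). Promoter windows from RefSeq (GRCm38.p6, 250 bases before to 50 after the start) were available for 5 of the 8 genes and not for H2-Ab1, Cd74 or Ciita. The module read by the class II promoter complex has an X box, bound by RFX, and a Y box, bound by NF-Y. It was searched on both strands as CTNNNAAC and TGATTGG with starts 20 to 45 bases apart, so that the motifs cannot overlap, letters and spacing having been chosen after these promoters were read. The pair was found in 4 of the 5 genes and in 65 of all 32851 windows (0.198%). The first count is of genes and the second of windows. Because the search was shaped on these promoters, setting one beside the other is no test. CTNNNAAC alone was in 41.1% of windows and TGATTGG alone in 7.82%. The stretches are shown, 5′ to 3′ on the strand of the gene, because they carry what these genes share in sequence. Capitals mark CTNNNAAC and then TGATTGG.
H2-Aa: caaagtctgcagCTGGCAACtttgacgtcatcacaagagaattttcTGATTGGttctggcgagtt
H2-Eb1: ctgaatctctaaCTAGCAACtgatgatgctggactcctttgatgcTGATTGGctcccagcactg
H2-DMb1: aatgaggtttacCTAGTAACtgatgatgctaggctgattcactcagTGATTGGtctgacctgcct
H2-DMb2: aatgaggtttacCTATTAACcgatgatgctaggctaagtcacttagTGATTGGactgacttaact
In GRCm38 these are chr17:34287855-34287919 on the minus strand for H2-Aa and, on the plus strand, chr17:34305761-34305824 for H2-Eb1, chr17:34153082-34153146 for H2-DMb1 and chr17:34145111-34145175 for H2-DMb2. The 2 starts lay 34 bases apart in H2-Aa, H2-DMb1 and H2-DMb2 and 33 in H2-Eb1. H2-DMa has 2 windows in the table, and neither holds the pair. A match is a description of letters, not a measured binding site.

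The classical class II chains had lower transcript levels in both libraries labelled double knockout than in either control, and the 2 libraries labelled double knockout differed from each other. H2-Ab1, the beta chain of the H2-A molecule, stood at 12.2 and 33.3 FPKM in the libraries labelled double knockout (replicates 1 and 2), against 70.9 and 70.3 FPKM in controls. H2-Aa, its alpha chain, stood at 7.95 and 24.6 FPKM, against 39.4 and 38.9 FPKM in controls. H2-Eb1, the beta chain of the H2-E molecule, stood at 5.09 and 11.98 FPKM in the libraries labelled double knockout, against 20.2 and 21.97 FPKM in controls. For each chain the controls nearly coincided, while replicate 1 labelled double knockout held 17.3% to 24.2% of the control mean and replicate 2 held 47.2% to 62.7%. In bulk tissue, fewer cells that carry a transcript and less of it per cell cannot be told apart.

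**Figure D1:**
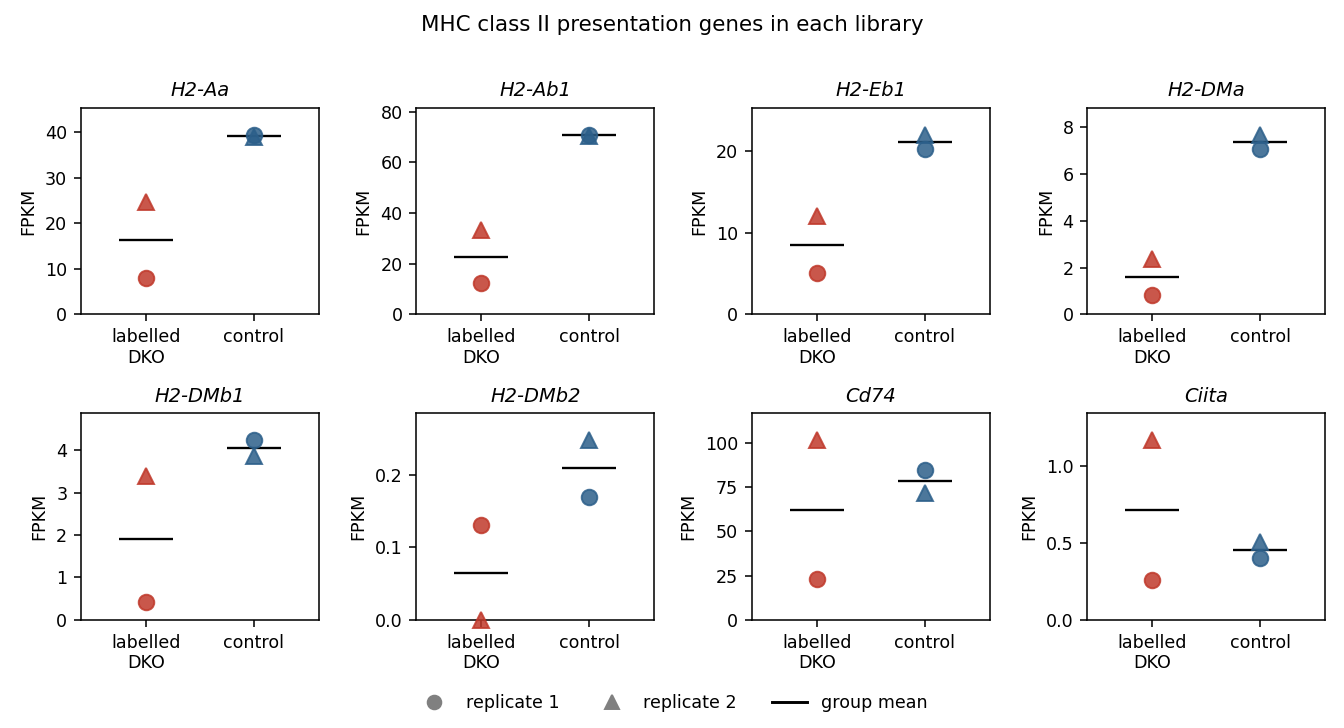
FPKM of each of the 8 genes on a linear axis from 0, with a panel per gene; circles are replicate 1, triangles replicate 2, red the libraries labelled double knockout (labelled DKO), blue the controls, and bars the group means (n = 2 each). For H2-Ab1 the libraries labelled double knockout sit at 12.2 and 33.3 FPKM, below controls at 70.9 and 70.3, while for Cd74 the replicate at 101 FPKM lies above both controls.

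H2-DM is a heterodimer of the H2-DMa alpha chain with a beta chain from H2-DMb1 or H2-DMb2. H2-DMa stood at 0.830 and 2.37 FPKM in the libraries labelled double knockout, against 7.10 and 7.69 FPKM in controls, which is 11.2% and 32.1% of the control mean. The mean of the 2 libraries, 21.7% of the control mean, was the lowest such share among the 6 genes tested. H2-DMb1 stood at 0.419 and 3.38 FPKM in the libraries labelled double knockout, against 4.23 and 3.85 FPKM in controls. Its replicate 1 thus held 10.4% of the control mean, whereas its replicate 2 held 83.6% and lay just under the lower control. H2-DMb2 was scarce everywhere, at 0.130 and 0 FPKM in the libraries labelled double knockout and 0.170 and 0.247 FPKM in controls. Corrected for the worth of a read in each library, its values stood in the proportion 1 to 0 in the libraries labelled double knockout and 2 to 2 in controls, rounded from 1.97 and 1.999 for the controls, so no comparison can be drawn for it. H2-DMb1 and H2-DMb2 also share sequence. Of the 75-base windows of the longest coding transcript of H2-DMb1 (GENCODE M21), 254 of 1330 (19.1%) occur in transcripts of H2-DMb2, so reads of that length could be split between these paralogs. None of the windows of H2-Aa, H2-Ab1, H2-Eb1, H2-DMa, Cd74 or Ciita occurred in a transcript of another gene.

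Cd74 and Ciita lie outside that stretch, on chromosomes 18 (60963503 to 60972306, mm9) and 16 (10480165 to 10527657), and did not follow the chains. Cd74, the invariant chain, stood at 23.0 and 101 FPKM in the libraries labelled double knockout, against 84.8 and 71.7 FPKM in controls. Replicate 1 was therefore the lowest of the 4 libraries and replicate 2 the highest, and the groups overlapped. Ciita stood at 0.262 and 1.17 FPKM in the libraries labelled double knockout, against 0.402 and 0.504 FPKM in controls, again with replicate 1 lowest and replicate 2 highest. Ciita is a large gene with several transcription starts, and these gene-level values do not separate the starts.

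Levels per transcript length followed nearly the same order in every library, with Cd74 first, then H2-Ab1, H2-Aa and H2-Eb1, and Ciita and H2-DMb2 last. H2-DMa stood above H2-DMb1 in replicate 1 labelled double knockout and in both controls, and below it in replicate 2. The spread between the libraries labelled double knockout exceeded the distance between most neighbours in that order, with Cd74 (23.0 to 101 FPKM) and H2-Ab1 (12.2 to 33.3) overlapping, as did H2-Ab1 and H2-Aa (7.95 to 24.6), H2-Aa and H2-Eb1 (5.09 to 11.98) and H2-DMa and H2-DMb1. In controls the first 4 genes kept apart, although Cd74 and H2-Ab1 came close (71.7 and 70.9 FPKM at their nearest).

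The genotype difference was then set beside the spread between replicates on the log2(FPKM + 1) scale, which understates changes of low genes. Of the 8 genes, 6 reached a 4-library mean of 1 FPKM and were tested, while H2-DMb2 and Ciita lay under this filter. Limma, fitted over all 10883 genes that passed, called 1 of the 6 lower and 0 higher at an adjusted p under 0.05, where it called 9.57% of all genes tested (5.8% lower and 3.77% higher). That gene was H2-DMa, which fell by 1.76 on the log2 scale (SE 0.33, 95% interval -2.60 to -0.92, limma, adjusted p = 0.0392). The call of H2-DMa was lost without control 1 (limma, adjusted p = 0.126), without control 2 (0.164), without replicate 1 labelled double knockout (0.0627), with a pseudocount of 0.1 (0.0544), with no filter but a mean above 0 (0.0833), and with FPKM estimated for each library alone (0.0515). Each of these settings also called fewer genes in all. The median log2 fold change of the 6 tested genes was -1.36, against 0.025 over all genes tested. With 2 libraries a group, the smallest p of a two-sided exact permutation test is 0.333, so no such test is given.

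The other tested genes did not pass. The log2 fold change was -1.75 ± 0.46 for H2-Ab1 (SE, limma, adjusted p = 0.0823) with a 95% interval of -2.93 to -0.57. For H2-Eb1 it was -1.31 ± 0.38 (adjusted p = 0.0980, interval -2.28 to -0.34), and for H2-Aa -1.41 ± 0.50 (adjusted p = 0.148, interval -2.70 to -0.12). These intervals are not adjusted for the number of genes. The interval reached from -2.42 to 0.39 for H2-DMb1 (limma, adjusted p = 0.291) and from -2.44 to 1.09 for Cd74 (adjusted p = 0.567), so for both a decrease and an increase lie within it. Both libraries labelled double knockout lay below both controls in 5 of the 6, the exception being Cd74, where 29.5% of all genes tested did so, 31.2% had both above and 60.7% had groups that did not overlap in either direction.

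Replicates labelled double knockout differed more than controls in each of the 6. Replicate 2 was higher in all 6, where it was higher in 46.8% of all genes tested. It exceeded replicate 1 by 0.88 (H2-DMa) to 2.097 (Cd74) log2 units, while the controls differed by 0.01 to 0.24. The added 1 FPKM shrinks such differences for low genes. As a ratio of FPKM, replicate 2 stood at 2.86 times replicate 1 for H2-DMa. The ratio was 2.35 for H2-Eb1, 2.73 for H2-Ab1, 3.09 for H2-Aa, 4.42 for Cd74 and 8.06 for H2-DMb1. On the log2(FPKM + 1) scale the excess of replicate 2 reached at least 1 unit in 5 of the 6, all but H2-DMa. An excess of replicate 2 that large was found in 2.47% of all genes tested. A difference that large in either direction was found in 4.63% of all genes tested between these replicates and in 3.4% between the controls. Over all genes tested the median of that difference was -0.02. The genotype difference was larger than both replicate differences in 3 of the 6 (H2-Ab1, H2-Eb1 and H2-DMa) and not in H2-Aa, H2-DMb1 and Cd74.

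**Figure D2:**
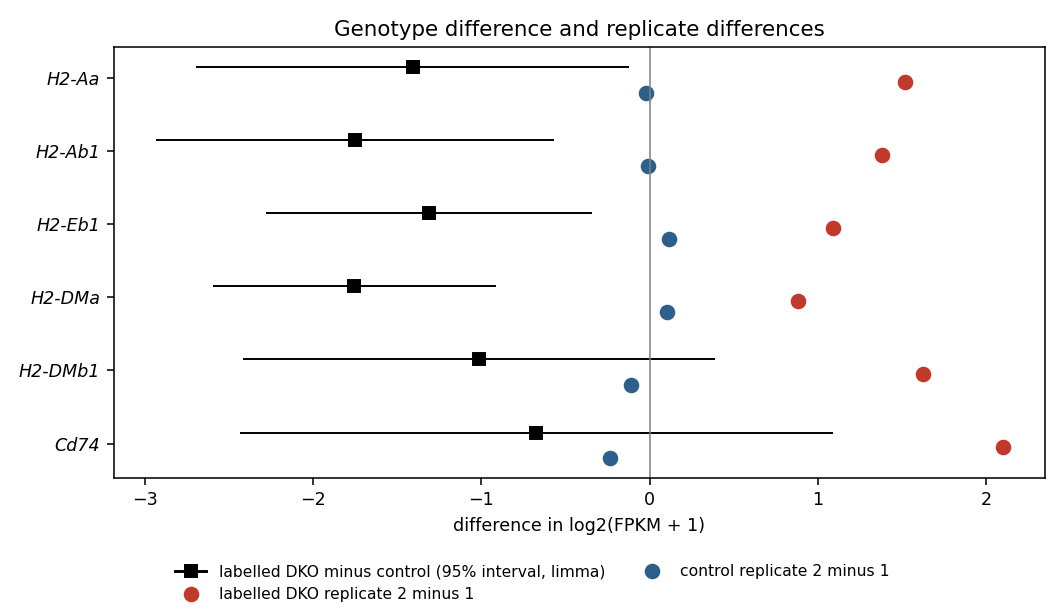
Differences in log2(FPKM + 1) for the 6 tested genes: black squares are the libraries labelled double knockout (labelled DKO) minus controls with the 95% interval of limma, red circles replicate 2 minus 1 labelled double knockout, and blue circles control 2 minus 1. Blue circles lie within 0.24 of 0, whereas red circles reach 2.097 for Cd74, whose black interval spans 0.

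The comparison therefore turned on which library stood for the labelled double knockout. With replicate 1 as its only library, limma called all 6 tested genes lower, at log2 fold changes of -1.72 (Cd74) to -2.44 (H2-Ab1), where it called 4.65% of all genes tested. With replicate 2 as its only library limma called 0 of the 6, although 4 had an unadjusted p under 0.05, and it called 6.37% of all genes tested. In that fit the log2 fold change was -1.06 for H2-Ab1 (adjusted p = 0.0618), -0.65 for H2-Aa and 0.38 for Cd74. A lone library has no spread of its own in such a fit and is taken to vary like the controls.

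The authors' deposited table gives a group value for each genotype and a q-value. It tested 6 of the 8 genes and called 4 of them significant, all lower in the knockout, where it called 13.2% of the genes it tested (7.31% lower). In the authors' deposited table H2-Ab1 had 23.0 FPKM in the knockout and 74.3 in control (q = 0.000868), and H2-DMa had 1.59 and 7.45 (q = 0.00566). The others it called were H2-Eb1 (q = 0.0101) and H2-Aa (q = 0.0128). The authors' deposited table did not call Cd74 (61.4 FPKM in the knockout and 76.7 in control, q = 0.670) or H2-DMb1 (q = 0.264), and did not test Ciita or H2-DMb2. It was computed from the same 4 libraries, so its calls are not independent of the values above.

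Ratios of FPKM within a library do not depend on its scaling, and these were chosen after the values were seen. Cd74 over H2-Ab1 was 1.88 and 3.04 in the libraries labelled double knockout, against 1.1955 and 1.019 in controls. The Cd74 transcript was thus in larger excess over that of H2-Ab1 in both, and protein was not measured. H2-Aa over H2-Ab1 was 0.651 and 0.736, against 0.556 and 0.553 in controls. H2-DMa over H2-Ab1 was 0.0679 and 0.0712, against 0.10003 and 0.10935 in controls. These 3 ratios did not overlap between the groups. Neither did H2-Eb1 over H2-Ab1 (0.417 and 0.359, against 0.285 and 0.312 in controls) or Cd74 over H2-Aa (2.89 and 4.13, against 2.15 and 1.84). Among all single genes tested, 60.7% had groups that did not overlap, and no such share was computed for ratios. H2-DMb1 over H2-DMa was 0.505 and 1.42 in the libraries labelled double knockout, against 0.597 and 0.501 in controls, with only replicate 2 standing apart.

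**Figure D3:**
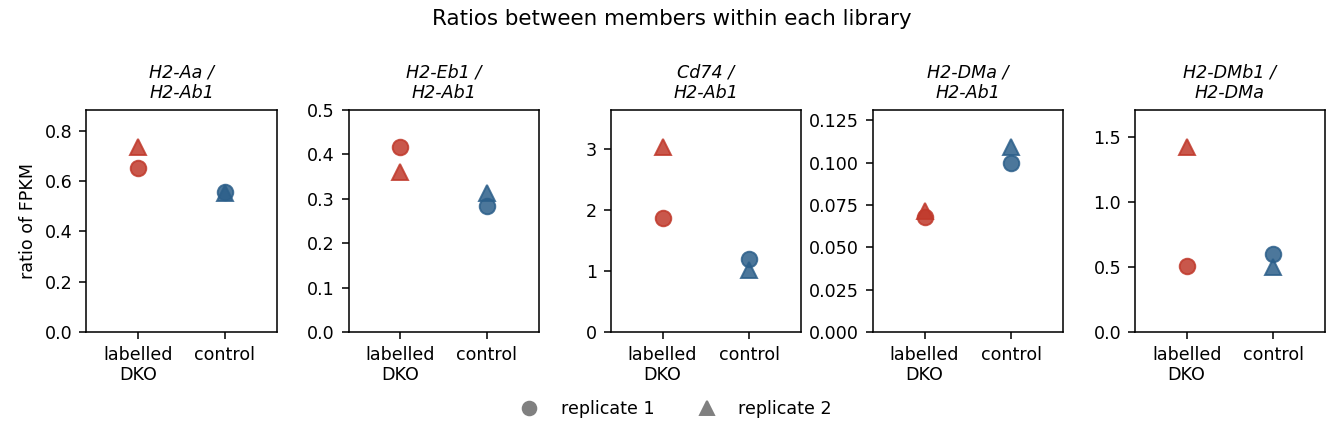
Ratios of FPKM between pairs of class II genes within each library, on linear axes from 0; circles are replicate 1, triangles replicate 2, red the libraries labelled double knockout (labelled DKO) and blue the controls. Cd74 over H2-Ab1 lies at 1.88 and 3.04 in red against 1.1955 and 1.019 in blue, and H2-DMb1 over H2-DMa is high, at 1.42, in replicate 2 labelled double knockout alone.

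The other class II chain genes were near or at 0. H2-Ea-ps, the annotated pseudogene of the H2-E alpha chain, was listed at 0 in all 4 libraries. The 4 chain genes found (H2-Oa, H2-Ob, H2-Eb2 and H2-Ea-ps) summed to 0.113 and 0.299 FPKM in the libraries labelled double knockout, against 0.308 and 0.235 FPKM in controls. The most abundant of them, H2-Oa, a chain of the H2-O inhibitor of H2-DM, stood at 0.0894 and 0.117 FPKM, against 0.233 and 0 FPKM in controls.

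The factors that bind the shared promoter module showed no called change. The promoter complex had 10 genes tested (RFX and NF-Y subunits, Creb1 and histone acetyltransferases). Limma called 0 of the 10 at an adjusted p under 0.05, where it called 9.57% of all genes tested. Their median log2 fold change was -0.21. Both libraries labelled double knockout lay below both controls in 5 of the 10, where 29.5% of all genes tested did so. Both lay above in 0 of the 10, where 31.2% of all genes tested did so. Of the 10, Creb1 had an unadjusted 95% interval that excluded 0 (-0.82 to -0.004). Nfyc, the most abundant and a subunit of NF-Y, stood at 27.1 and 22.3 FPKM in the libraries labelled double knockout, against 29.2 and 26.7 FPKM in controls. Rfx5, the subunit that gives the RFX complex its DNA binding, stood at 1.53 and 2.54 FPKM, against 1.62 and 1.598 FPKM in controls.

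Upstream of Ciita, the interferon gamma pathway had 1 called gene among 11 tested, where limma called 9.57% of all genes tested. Ifngr2, a chain of the interferon gamma receptor, fell to 61.3 and 71.9 FPKM in the libraries labelled double knockout, against 180 and 233 FPKM in controls, with a log2 fold change (± SE) of -1.61 ± 0.20 (adjusted p = 0.0150, limma). That call was lost without control 1, without control 2 or without replicate 1 labelled double knockout. Each of these fits also called fewer genes in all. Ifngr1, the ligand-binding chain, stood at 163 and 130 FPKM, against 87.4 and 86.7 FPKM in controls (limma, adjusted p = 0.0714). Ifng itself lay under the filter and was not tested. It stood at 0.151 and 0.197 FPKM in the libraries labelled double knockout and was listed at 0 in both controls, levels too low for a comparison.

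Some targets of interferon signalling were high in replicate 2 labelled double knockout and near the control level in replicate 1. The genes named here, apart from B2m, were chosen after their values were seen. Nlrc5, the counterpart of Ciita for class I genes, stood at 0.167 and 3.47 FPKM in the libraries labelled double knockout, against 0.167 and 0.233 FPKM in controls. Socs1, a feedback inhibitor of the pathway, stood at 2.01 and 6.22 FPKM, against 1.74 and 2.05 FPKM in controls. In both of these replicate 2 alone stood apart, as it did for Ciita. Irf1, a transcription factor of the interferon response, did not show this, at 83.8 and 72.4 FPKM in the libraries labelled double knockout and 78.3 and 89.3 FPKM in controls.

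Class I presentation followed in part. Of the 16 class I genes tested limma called 0, where it called 9.57% of all genes tested. The median log2 fold change of the 16 was 0.04. Tap1, a subunit of the peptide transporter, stood at 8.69 and 55.3 FPKM in the libraries labelled double knockout, against 10.6 and 9.36 FPKM in controls. Psmb9, an immunoproteasome subunit, stood at 27.8 and 86.7 FPKM, against 33.2 and 31.3 FPKM in controls. B2m, the light chain of class I molecules, instead resembled the class II chains, at 558 and 1632 FPKM in the libraries labelled double knockout against 2048 and 2056 FPKM in controls (log2 fold change -1.10 ± 0.53, SE, limma, adjusted p = 0.250). Replicate 2 labelled double knockout exceeded replicate 1 by at least 1 log2 unit in 6 of the 16 class I genes and 3 of the 11 interferon pathway genes, where 2.47% of all genes tested did. With replicate 2 as the only library labelled double knockout, the log2 fold change was 2.36 for Tap1, 1.90 for Nlrc5 and 1.40 for Psmb9. For Cd274, from the list of ligases and costimulators, it was 1.86. These genes were picked with their values in view, so high values in that fit follow from the choice.

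**Figure D4:**
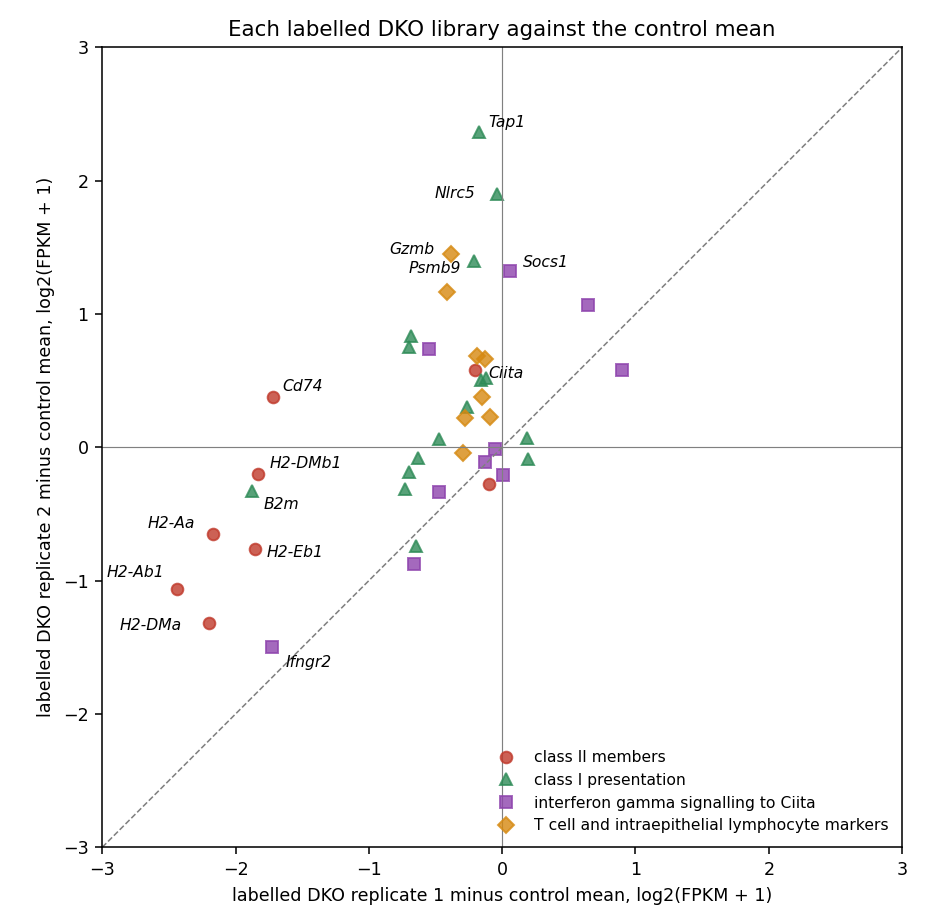
Difference from the control mean in log2(FPKM + 1) of replicate 1 (horizontal) and replicate 2 (vertical) labelled double knockout (labelled DKO), for the class II genes and tested genes of 3 lists; the dashed line marks equal differences. Class II chains lie at the lower left above the line, with B2m among them, whereas Tap1 and Nlrc5 lie near 0 on the horizontal axis and high on the vertical axis.

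Among genes that process antigen in endosomes and lysosomes a pair of proteases rose. Of 13 tested, limma called 2 higher and 0 lower, where it called 3.77% of all genes tested higher and 5.8% lower. The median log2 fold change of the 13 was -0.03. Ctse, the aspartic protease cathepsin E, rose to 35.0 and 26.3 FPKM in the libraries labelled double knockout, against 0.128 and 0.262 FPKM in controls (log2 fold change 4.71 ± 0.21, SE, limma, adjusted p = 0.00137), and was called whichever 1 of the 4 libraries was left out. Lgmn, the asparaginyl endopeptidase, rose to 121 and 45.0 FPKM, against 13.3 and 7.55 FPKM in controls (log2 fold change 2.76 ± 0.52, SE, limma, adjusted p = 0.0414). The call of Lgmn held without replicate 2 labelled double knockout and was lost without any other library. It was also lost with no filter but a mean above 0. Each setting that lost it also called fewer genes in all. Ctss, which trims the invariant chain, stood at 64.5 and 103 FPKM in the libraries labelled double knockout, against 123 and 138 FPKM in controls, without a call (limma, adjusted p = 0.177). March8, a ubiquitin ligase whose family removes class II from the surface, stood at 32.6 and 24.3 FPKM, against 46.2 and 53.6 FPKM in controls (limma, adjusted p = 0.0765). It was the most abundant of its list of ligases and costimulators. Of the 8 genes in that list, 3 were tested and 0 called, where 9.57% of all genes tested were called. Cd83, which stabilizes class II on the surface, lay under the filter and was called lower (limma, adjusted p = 0.0238) with the lower filter of 0.1 FPKM. In that list Cd40, Cd80 and Cd86, costimulators of professional presenting cells, did not exceed 0.0959 FPKM in any library.

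Markers of cells that carry class II at high levels were measured beside these results. Of the 8 dendritic cell markers 0 passed the filter, and their sum was 0.416 and 0.776 FPKM in the libraries labelled double knockout, against 0.813 and 1.47 FPKM in controls. Itgax, the integrin CD11c, was the only dendritic cell marker to reach 1 FPKM in a library. It stood at 0.256 and 0.515 FPKM in the libraries labelled double knockout, against 0.603 and 1.14 FPKM in controls. Of the 8 markers, 2 (Itgax and Xcr1) had both libraries labelled double knockout below both controls, 0 had both above and 6 overlapped. Among all genes tested, 29.5% had both below and 31.2% both above, but all 8 markers lay under the filter. Xcr1 stood at 0.0531 and 0.0232 FPKM in the libraries labelled double knockout, against 0.0577 and 0.0842 FPKM in controls, levels too low for a comparison. Ccr7 and Cd209a were listed at 0 in all 4 libraries. Of the 8 B cell markers 0 passed, with sums of 1.10 and 0.989 FPKM against 1.40 and 0.593 FPKM in controls, and Pax5 was listed at 0 throughout. Of the 12 macrophage and monocyte markers found, 6 had both libraries labelled double knockout below both controls (Csf1r, Cx3cr1, Lyz2, C1qa, Fcgr1 and Itgam). Another 2 had both above (Cd14 and Mrc1) and 4 overlapped (Emr1, C1qb, C1qc and Cd68). Among all genes tested, 29.5% had both below and 31.2% both above, but 7 of the 12 markers lay under the filter. Of the 5 markers that passed the filter, limma called Itgam lower (adjusted p = 0.0410) and Cd14 (0.0455) and Mrc1 (0.0175) higher. It did not call Lyz2 (limma, adjusted p = 0.0741) or C1qb (0.401), and it called 9.57% of all genes tested. Csf1r, the receptor of the macrophage growth factor CSF1, stood at 0.246 and 0.188 FPKM in the libraries labelled double knockout, against 0.374 and 0.858 FPKM in controls. C1qa, a chain of complement C1q, stood at 0.344 and 0.450 FPKM, against 0.897 and 0.90001 FPKM in controls, whereas C1qb stood at 0.529 and 0.807 FPKM against 0.747 and 2.18 FPKM. Most of these levels were thus under 1 FPKM. C1qc stood at 0.178 and 1.16 FPKM, against 0.637 and 0.761 FPKM in controls, and Cd68 at 0.368 and 1.34 FPKM, against 0.524 and 1.18 FPKM. The macrophage and monocyte markers summed to 17.7 and 17.6 FPKM in the libraries labelled double knockout, against 17.8 and 48.9 FPKM in controls. Lyz2 gave most of the excess of control 2, at 1.86 and 2.66 FPKM in the libraries labelled double knockout, against 8.60 and 34.8 FPKM in controls. The part of presenting cells in the class II values was not tested.

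Lymphocyte markers moved with replicate 2 labelled double knockout. All 8 markers of T cells and intraepithelial lymphocytes were tested and 0 were called, where 9.57% of all genes tested were called. Of the 8, 7 were highest in that library, where 25.1% of all genes tested were. Their sum was 67.1 and 184 FPKM in the libraries labelled double knockout, against 82.3 and 91.0 FPKM in controls. Gzmb, a granzyme of cytotoxic lymphocytes, stood at 11.6 and 44.1 FPKM, against 15.006 and 15.98 FPKM in controls, whereas Cd3g, a chain of the T cell receptor complex, stood at 4.52 and 8.57 FPKM against 5.17 and 4.91 FPKM. Ptprc, carried by all leukocytes, stood at 2.34 and 4.48 FPKM, against 2.84 and 9.56 FPKM in controls. The part of lymphocytes in the class II values was not tested. The epithelial label fits its markers, Krt8 standing at 3075 and 3496 FPKM in the libraries labelled double knockout and 1998 and 2815 FPKM in controls. Of the 6 epithelial markers limma called 2 lower, where it called 5.8% of all genes tested lower. Epcam stood at 526 and 531 FPKM in the libraries labelled double knockout, against 1135 and 1281 FPKM in controls (limma, adjusted p = 0.0300). Vil1 stood at 508 and 487 FPKM, against 970 and 1024 FPKM in controls (limma, adjusted p = 0.0411).

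The genes most like the class II group over the 4 libraries were sought among all genes tested, by the distance between log2(FPKM + 1) profiles, each centred on its own mean, and the mean profile of the 6 tested class II genes. B2m was nearest (distance 0.231 log2 units), followed by Syce3 (0.320), Lmcd1 (0.391), Cldn4 (0.430) and Panx1 (0.487). Cldn4, a claudin of tight junctions, stood at 17.8 and 66.6 FPKM in the libraries labelled double knockout, against 90.8 and 113 FPKM in controls. Panx1, a channel protein, stood at 7.49 and 13.6 FPKM, against 29.9 and 30.1 FPKM in controls, and was called lower (limma, adjusted p = 0.0429), whereas the other 4 were not called.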

How the data were processed

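Per the submitters' processing notes, TopHat2 2.0.9, Cufflinks 2.1.1, Cuffnorm, Cuffdiff and the build mm9 were used, with no roles given. Per the labels' protocols, cells were detached in EDTA (5 mM, 45 minutes, 4 °C) and TruSeq libraries were read as 75-base single-end reads. No source used here says whether strand was kept. The titles call the replicates biological and name no animals or batch, so p-values measure the spread between these libraries. The authors deposited a table of 1 column per library without a unit, taken as FPKM normalized between libraries, files of FPKM per library alone, and a comparison with group FPKM, p-values and q-values. Its column of fold changes was not used.

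Rows sharing a symbol were summed (147 symbols), and 1036 symbols of short RNAs were left out. Limma 3.58.1 (R 4.3.3) was fitted to log2(FPKM + 1) with an intensity trend over 10883 genes whose 4-library mean reached 1 FPKM, with Benjamini-Hochberg adjustment over all of them; it was also tested on simulated data. The files hold no counts, so no counting error is given. Locus starts were written 1-based. The 8 genes and the lists were chosen with earlier results of these data known. Named by rule were the 8 genes, Hnf4a and Cdx2, the 2 most changed called members of each pathway list or else its most abundant member, presenting-cell markers at 1 FPKM or more in any library, and the 5 genes nearest in profile; other genes were picked with their values in view. In the interferon gamma list 1 gene is counted but not reported here by name or in a figure. Alternatives varied the scaling, the source of FPKM, the variance trend, the filter and the pseudocount, added a replicate block, or left out a library.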

Additional observations from a re-analysis of the deposited data

How the results depend on the processing

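The count of class II genes called by limma was 1 with all 4 libraries. It was 0 with a pseudocount of 0.1 (4 with an unadjusted p under 0.05), 0 with no filter but a mean above 0 (3 unadjusted) and 0 with FPKM of single libraries (3 unadjusted). Leaving out a library gave counts from 0 to 6, with 6 only without replicate 2 labelled double knockout. All genes called were lower. Calls in the pathway lists were 3 with all libraries, where limma called 9.57% of all genes tested. Calls over all genes tested fell whenever a library was left out, most without a control. A call lost in such a fit is thus not particular to its gene. The log2 fold change of Cd74 ranged from -1.72 to 0.38 when a library was left out, turning positive only without replicate 1 labelled double knockout, and no other tested class II gene changed sign under any alternative. The genotype difference exceeded both replicate differences in 3 genes also with a pseudocount of 0.1 and in 2 with FPKM of single libraries, which moved the median of all genes to 0.17. The titles do not say whether libraries of the same replicate number were paired. Same-numbered libraries did not deviate together (r = -0.005 across 10883 genes), but 2 pairs cannot settle whether they were paired. A replicate block left the count at 1, with H2-DMa at an adjusted p of 0.0378. The causes of these shifts were not tested beyond the smaller number of libraries or larger number of genes. Unknown absolute depth limits Ciita and H2-DMb2 most.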

Other observations

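Between H2-DMa and H2-Eb1 on chromosome 17 the deposited loci also place Psmb9, Tap1, Psmb8, Tap2 and H2-Ob. Of these, 4 were tested and 0 called by limma, where it called 9.57% of all genes tested. None of these 4 had groups that did not overlap, where 60.7% of all genes tested had such groups. Psmb8, an immunoproteasome subunit, stood at 34.0 and 99.007 FPKM in the libraries labelled double knockout, against 51.7 and 58.8 FPKM in controls, and Tap2 at 9.26 and 27.0 FPKM, against 16.6 and 14.7 FPKM in controls. The 4 tested neighbours were highest in replicate 2 labelled double knockout, while H2-Ab1, H2-Aa and H2-Eb1 in the same stretch were highest in controls.

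B2m and the class I heavy chain H2-K1 parted in replicate 1 labelled double knockout. B2m over H2-K1 was 1.09 and 2.22 in the libraries labelled double knockout, against 2.44 and 2.48 in controls. H2-K1 stood at 514 and 735 FPKM, against 839 and 829 FPKM in controls. The value of H2-K1 is uncertain, since class I heavy chain genes are near-identical. Cd274, which encodes the checkpoint ligand PD-L1, stood at 0.351 and 4.16 FPKM in the libraries labelled double knockout, against 0.386 and 0.459 FPKM in controls. In the files of FPKM for each library alone H2-DMb1 stood at 0.347 and 3.07 FPKM in the libraries labelled double knockout, against 3.58 and 2.84 FPKM in controls, so its groups overlapped there.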
